A study of Mus musculus with 8 samples.

Results

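The genes described here are 8 whose transcripts fell at good signal in the livers of mice fed phenobarbital: Nog, Enho, Saraf, Gml2, Hap1, Adprhl1, Lrrc2 and Pvalb. They were found among the array's features by gene symbol, Saraf under its older symbol Tmem66 and Gml2 under Hemt1, and they make up 8 of 20738 named genes, with 12 of 62976 features. Livers came from males of the outbred mouse stock CD-1, and their RNA was read on one-colour Agilent arrays. The NaPB group (4 arrays) had received 2500 ppm of sodium phenobarbital, a barbiturate, in the feed for 7 days, and the control group (4 arrays) feed at 0 ppm for the same time. The labels do not say whether replicates were different mice, so p-values here measure only the spread between arrays, which may be technical. With 4 arrays a diet, precision is limited by their number. The 8 genes were chosen by their measured NaPB to control differences and their intensities on these same arrays, so their fall is described with its error. Model calls of the 8 genes are given as a description and support nothing.

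Several of the 8 genes encode proteins better known outside the liver, and they do not form 1 pathway. Nog encodes noggin, a secreted protein that binds bone morphogenetic proteins (BMPs) and keeps them from their receptors; in the liver, BMP signals control the iron hormone hepcidin. Enho encodes adropin, a secreted peptide linked with glucose and lipid handling in mice. Saraf encodes a membrane protein of the endoplasmic reticulum that slows store-operated calcium entry, the inflow of calcium that refills that compartment after its release. Gml2 belongs to the family of Ly6 and uPAR proteins, many of which are anchored to the cell surface by a lipid. Hap1 encodes a partner of huntingtin that takes part in vesicle transport, mainly in neurons. Adprhl1 is a relative of the ADP-ribosylhydrolases, Lrrc2 encodes a protein with leucine-rich repeats, and Pvalb encodes parvalbumin, a calcium buffer of fast muscle fibres and of some neurons.

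Sequences around the transcription start (from 250 bases before to 50 after it) were at hand for 4 of the 8 genes, from RefSeq on the mouse build GRCm38.p6. They are shown 5′ to 3′ on the strand of the gene, as a description of genes that were picked for their fall. Shared control of these genes was not tested. Capitals mark matches on either strand to 1 of 6 short motifs: the nuclear receptor half-site AGGTCA, the TATA box TATAAA, the STAT site TTCNNNGAA, the CCAAT box CCAAT, the GC box GGGCGG and the E-box CACGTG. RefSeq lists a pair of starts each for Hap1 and Pvalb; those of Hap1 nearly coincide and 1 is shown.
Hap1 start region, chr11:100356092-100356391, minus strand: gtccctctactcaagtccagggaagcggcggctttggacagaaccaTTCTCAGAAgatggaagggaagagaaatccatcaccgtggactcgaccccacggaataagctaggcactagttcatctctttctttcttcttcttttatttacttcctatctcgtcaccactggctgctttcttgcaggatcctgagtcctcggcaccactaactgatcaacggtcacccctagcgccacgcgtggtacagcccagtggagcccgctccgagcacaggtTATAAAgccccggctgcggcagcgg
Lrrc2 start region, chr9:110951295-110951594, plus strand: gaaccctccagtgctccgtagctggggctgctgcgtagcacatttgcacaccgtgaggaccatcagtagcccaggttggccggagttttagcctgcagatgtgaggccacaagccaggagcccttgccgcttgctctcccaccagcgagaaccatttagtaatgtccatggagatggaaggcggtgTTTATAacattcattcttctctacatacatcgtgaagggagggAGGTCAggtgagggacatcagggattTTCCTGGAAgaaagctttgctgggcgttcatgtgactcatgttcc
Adprhl1 start region, chr8:13254113-13254412, minus strand: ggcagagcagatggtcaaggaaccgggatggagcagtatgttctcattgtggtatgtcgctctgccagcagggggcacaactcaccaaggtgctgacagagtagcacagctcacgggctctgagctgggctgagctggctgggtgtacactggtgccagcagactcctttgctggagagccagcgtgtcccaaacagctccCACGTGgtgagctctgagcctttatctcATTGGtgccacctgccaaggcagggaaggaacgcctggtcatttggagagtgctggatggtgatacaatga
Pvalb start region, chr15:78206351-78206650, minus strand: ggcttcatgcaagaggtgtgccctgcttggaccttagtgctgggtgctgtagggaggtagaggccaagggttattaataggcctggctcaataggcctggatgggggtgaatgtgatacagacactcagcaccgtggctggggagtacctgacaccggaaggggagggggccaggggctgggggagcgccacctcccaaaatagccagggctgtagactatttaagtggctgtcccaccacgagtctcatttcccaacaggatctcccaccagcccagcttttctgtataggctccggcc
Pvalb start region, chr15:78204188-78204487, minus strand: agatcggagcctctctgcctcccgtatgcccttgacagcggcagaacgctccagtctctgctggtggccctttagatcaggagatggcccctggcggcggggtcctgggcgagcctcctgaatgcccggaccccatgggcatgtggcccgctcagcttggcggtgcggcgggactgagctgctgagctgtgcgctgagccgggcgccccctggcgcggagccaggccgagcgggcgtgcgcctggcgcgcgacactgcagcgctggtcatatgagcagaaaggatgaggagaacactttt
No matches overlapped. The Hap1 region held 1 TATA box and 1 STAT site, the Lrrc2 region 1 nuclear receptor half-site, 1 TATA box and 1 STAT site, the Adprhl1 region 1 CCAAT box and 1 E-box, and neither Pvalb region held any of the 6. Among 32851 such regions of the mouse genome, 16.3% held the half-site, 13.6% the TATA box, 8.3% the STAT site, 37.4% the CCAAT box, 35.7% the GC box and 7.15% the E-box. No motif was present in all 4 genes. A match is a description of these letters alone, wherever it lies in the region. The TATAAA of Hap1, for example, lies after the annotated start.

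All values are the deposited intensities, on a linear scale and without a unit, which had been scaled so that the 75th percentile of every array lay between 0.952 and 0.974. The arrays differed in how far their bright genes stood above the rest: the 99th percentile was 62.3 times the 75th on NaPB replicate 4 and 107 to 125 times on the other NaPB arrays, and it ran from 65.8 times on control replicate 2 to 124 times on control replicate 1. The gene that phenobarbital induces classically in mouse liver, Cyp2b10, had 521, 491, 430 and 77.7 on NaPB replicates 1 to 4, against 3.72, 0.863, 2.98 and 5.22 on control replicates 1 to 4. The diets thus separated on this gene on every array, with NaPB replicate 4 the lowest of its diet.

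On the NaPB diet the 8 genes were lower by 2.61-fold (Adprhl1) to 7.21-fold (Nog), with a median log2 difference of −1.88 beside 0.01 over all 20738 genes. Every NaPB array lay below every control array for each of the 8 genes, a pattern that 4.31% of all genes showed. By limma, fitted to all genes, all 8 were called lower at a Benjamini-Hochberg adjusted p below 0.05, where 0.617% of all genes were (0.391% were called higher, and the diets did not overlap in either direction for 7.04%); both counts follow from how the genes were picked. The balance of lower and higher calls over all genes, 128 and 81, turned without NaPB replicate 4 (154 lower, 211 higher), without control replicate 1 (68 and 77), without both (196 and 374) and with array weights (354 and 458). The 8 genes were picked for good signal too, so their brightness is a description. The mean intensity of their brightest features over all 8 arrays was above that of 92.0% to 98.7% of all features. That mean includes the control arrays, where these genes were high. Their geometric means ran from 2.54 to 32.2 on NaPB and from 7.03 to 119 on control. The brightness of a feature also depends on its probe, so the levels of different genes are not set against each other here. In whole liver, fewer cells that make a transcript and less transcript per cell cannot be told apart.

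**Figure D1:**
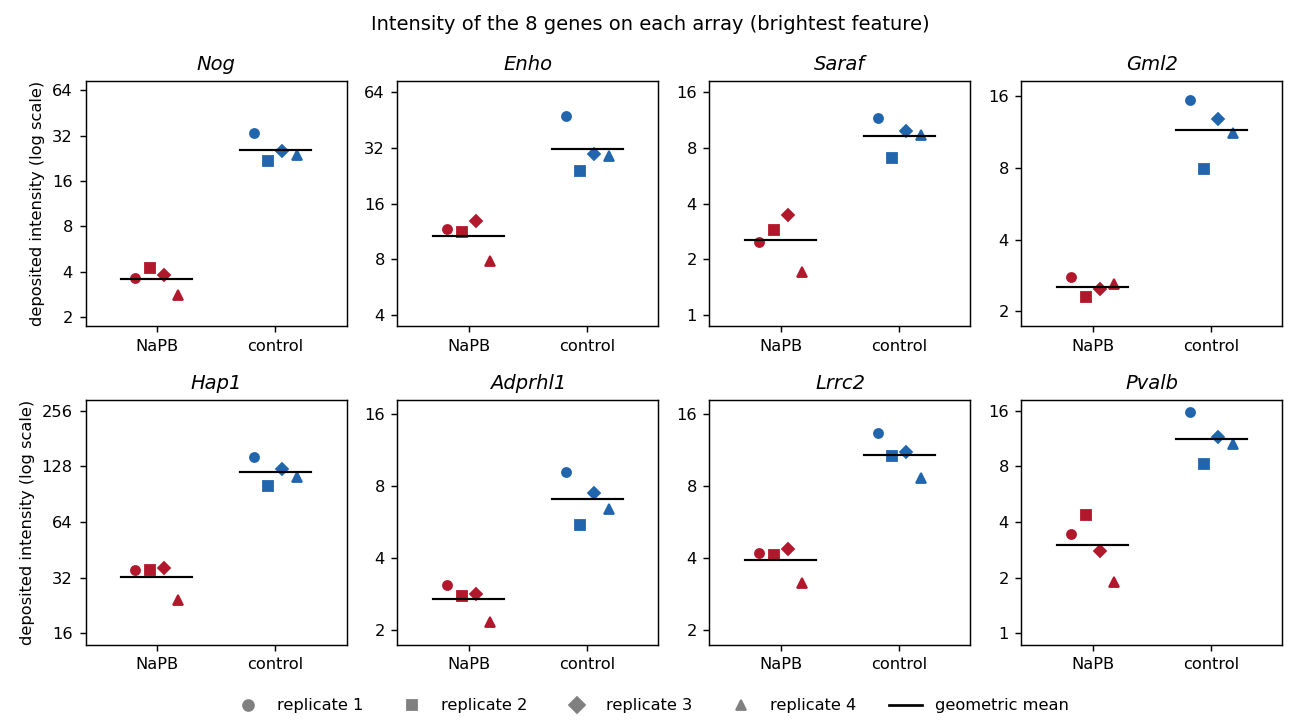
Deposited intensity of the brightest feature of each of the 8 genes on the 4 NaPB arrays (left, red) and the 4 control arrays (right, blue), on a log scale with its own range in each panel; symbols mark the replicate number and bars the geometric mean. In every panel the diets are separate, and control replicate 1 is the highest array.

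Of the secreted factors, Nog had 3.63, 4.21, 3.79 and 2.79 on NaPB replicates 1 to 4, against 33.1, 21.6, 25.4 and 23.9 on control replicates 1 to 4. Its geometric mean was 3.56 on NaPB and 25.7 on control (log2 SD 0.25 and 0.26, n = 4 each), a log2 difference of −2.85 ± 0.26 (limma SE). The gap between the diets was the widest among the 8 genes: the lowest control array was 5.14 times the highest NaPB array. Among the 128 genes that limma called lower, 11 had a larger fall. Nog has 1 feature on the array, so no second feature bears on it.

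Enho, the adropin gene, had 11.6, 11.3, 12.9 and 7.77 on NaPB replicates 1 to 4, against 47.8, 23.9, 29.8 and 28.9 on control replicates 1 to 4. NaPB replicate 4 was its lowest array and control replicate 1 its highest, and the lowest control array was 1.86 times the highest NaPB array. The log2 difference was −1.56 ± 0.30, a 2.94-fold lower geometric mean on NaPB. A second feature of Enho read 5.52, 5.1, 6.2 and 2.96 on NaPB replicates 1 to 4 and 19.7, 10.4, 12.9 and 10.7 on control replicates 1 to 4. It kept the diets apart too and gave a log2 difference of −1.44 ± 0.33. Both features ranked the same array lowest and the same array highest.

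Saraf, the brake on store-operated calcium entry, had 2.48, 2.89, 3.47 and 1.7 on NaPB replicates 1 to 4, against 11.6, 7.01, 9.85 and 9.37 on control replicates 1 to 4. The log2 difference was −1.87 ± 0.30, a 3.65-fold lower geometric mean on NaPB. The diets were separate, with the lowest control array 2.02 times the highest NaPB array. Gml2, the other gene of a membrane-associated family, had 2.79, 2.3, 2.49 and 2.61 on NaPB replicates 1 to 4, against 15.3, 7.88, 12.8 and 11.2 on control replicates 1 to 4. Its NaPB arrays were the tightest of the 8 genes (log2 SD 0.12, n = 4), while its control arrays had a log2 SD of 0.41 (n = 4), second to those of Enho. Gml2 was also the only 1 of the 8 whose lowest NaPB array was not replicate 4. Its log2 difference was −2.17 ± 0.28, a 4.52-fold lower geometric mean on NaPB. Saraf and Gml2 have 1 feature each.

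Among the genes of intracellular proteins, Hap1 had 35.1, 35.1, 35.9 and 24.2 on NaPB replicates 1 to 4, against 143, 101, 124 and 112 on control replicates 1 to 4. NaPB replicates 1 to 3 nearly coincided and replicate 4 lay below them. The log2 difference was −1.88 ± 0.26, a 3.69-fold lower geometric mean on NaPB. A second feature of Hap1 read 0.586, 0.485, 0.499 and 0.342 on NaPB replicates 1 to 4, against 0.689, 0.598, 0.619 and 0.8 on control replicates 1 to 4. It was lower on NaPB as well, but by a log2 difference of −0.52 ± 0.27, and its diets came within 1.02-fold of touching. The array's annotation gives both features the same RefSeq transcript, as it does for the pairs of Enho, Lrrc2 and Pvalb.

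Adprhl1 had 3.09, 2.79, 2.83 and 2.15 on NaPB replicates 1 to 4, against 9.2, 5.51, 7.49 and 6.44 on control replicates 1 to 4. Its log2 difference of −1.39 ± 0.27 was the smallest of the 8, and the lowest control array was 1.79 times the highest NaPB array. Lrrc2 had 4.18, 4.13, 4.34 and 3.14 on NaPB replicates 1 to 4, against 13.4, 10.7, 11.1 and 8.61 on control replicates 1 to 4. Its log2 difference was −1.47 ± 0.26, and it was the only 1 of the 8 genes whose lowest control array was replicate 4 and not replicate 2. A second feature of Lrrc2 read 0.24, 0.113, 0.238 and 0.351 on NaPB replicates 1 to 4, against 0.0887, 0.273, 0.305 and 0.257 on control replicates 1 to 4. Its diets overlapped and its log2 difference was 0.062 ± 0.46.

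Pvalb, the parvalbumin gene, had 3.43, 4.36, 2.8 and 1.9 on NaPB replicates 1 to 4, against 15.8, 8.23, 11.6 and 10.5 on control replicates 1 to 4. The diets were separate, the lowest control array being 1.89 times the highest NaPB array, and the NaPB arrays had the widest spread of the 8 genes (log2 SD 0.51, n = 4). The log2 difference was −1.91 ± 0.33. A second feature of Pvalb was at the floor of the array, taken as up to 2 times the lowest value of that array, on 7 of 8 arrays. It gave 0.11 ± 0.33, a difference between values that are mostly background.

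Of the 4 genes with a pair of features, therefore, Enho fell by about the same amount on both, Hap1 fell less on its second feature, and the second features of Lrrc2 and Pvalb, at the floor on 1 and on 7 of the 8 arrays, did not show the fall. For Nog, Saraf, Gml2 and Adprhl1 the fall rests on 1 feature. Probe positions and sequences were not used here, and why the features of a gene differ was not tested.

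**Figure D2:**
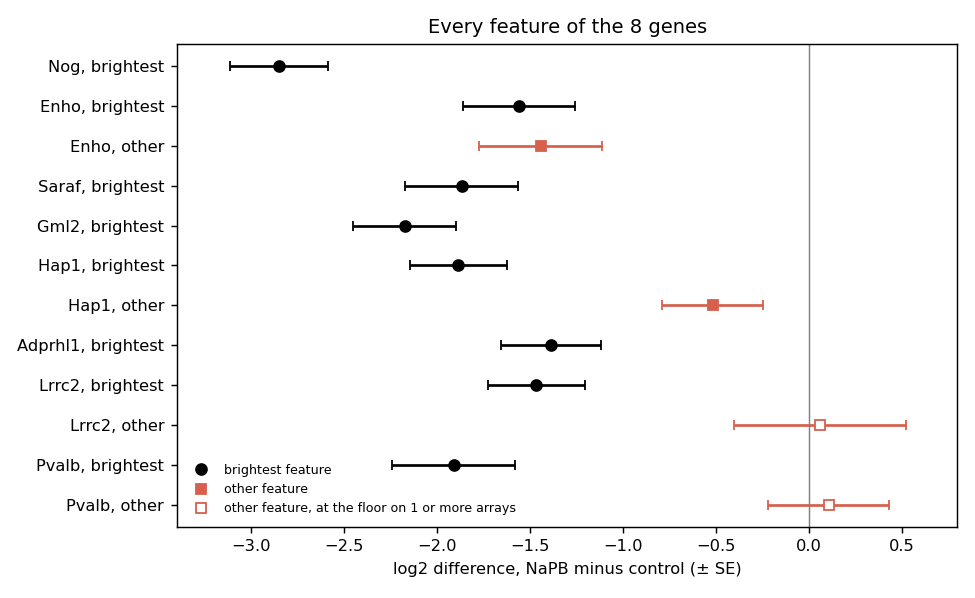
Log2 difference (NaPB minus control, x axis) with its standard error for each of the 12 features, 1 row per feature; black circles are the brightest feature of a gene, red squares its other feature, and open squares features at the floor on at least 1 array. The features of Enho lie side by side at −1.56 and −1.44, whereas those of Hap1 lie at −1.88 and −0.52, and the open squares of Lrrc2 and Pvalb lie near 0.

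The extreme arrays of a diet were mostly the same for the 8 genes, except at the top of the NaPB diet. Control replicate 1 was the highest control array for 8 of 8 genes and control replicate 2 the lowest for 7, and NaPB replicate 4 was the lowest NaPB array for 7. The highest NaPB array was replicate 3 for 4 genes, replicate 2 for 2 (Nog and Pvalb) and replicate 1 for 2 (Gml2 and Adprhl1). On average the 8 genes lay −0.38 log2 units from their NaPB mean on NaPB replicate 4, and 0.40 and −0.33 from their control mean on control replicates 1 and 2. The 2177 other genes whose mean log2 intensity lay in the range of the 8 moved alike, with median deviations of −0.63, 0.38 and −0.39 on these arrays. Between pairs of the 8 genes, the deviations from the diet means correlated over the 8 arrays with a median r of 0.81 and a range from 0.33 (Gml2 and Lrrc2) to 0.94 (Nog and Pvalb); over pairs of the 2177 other genes the median r was 0.79. All genes on an array share its hybridisation and scaling, so these correlations are a description of the arrays as much as of the genes. With control replicate 1 and NaPB replicate 4 both left out, the differences of the 8 genes ran from −2.61 to −1.15, with a median of −1.55.

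**Figure D3:**
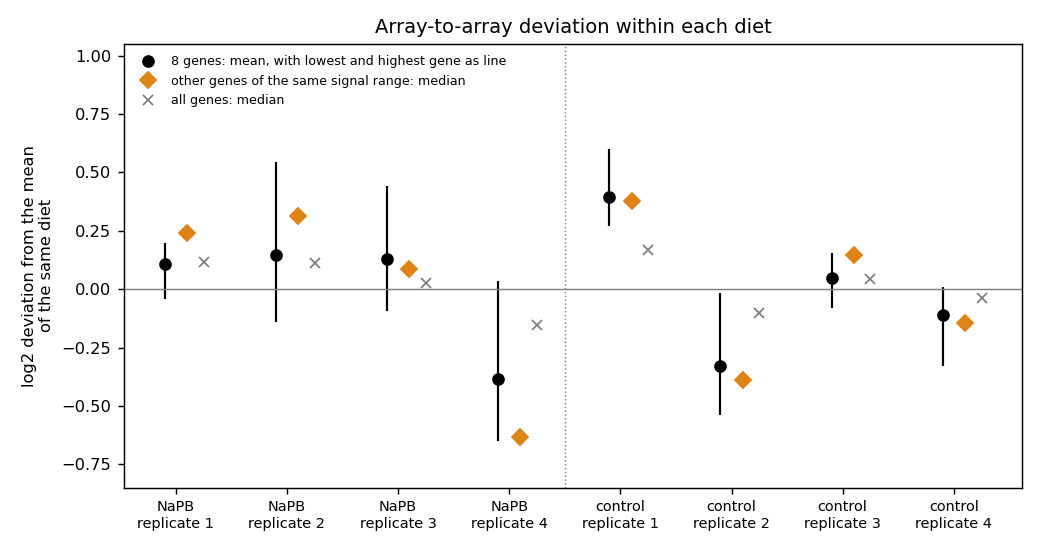
Deviation of each array from the mean of its diet on the log2 scale (y axis), NaPB arrays left and control arrays right; black points give the mean of the 8 genes with a line from the lowest to the highest gene, orange diamonds the median of the 2177 other genes of the same signal range, and crosses the median of all genes. On NaPB replicate 4 and control replicates 1 and 2 the black points and the diamonds deviate the same way.

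In the signal range of the 8 genes, limma called 4 other genes lower, 0.184% of the 2177, and every NaPB array lay below every control array for 3.45%. They were Serpina4-ps1, a serpin pseudogene (log2 difference −5.75 ± 0.63), Slc22a7, an organic anion transporter gene (−2.16 ± 0.36), Smpd1, the acid sphingomyelinase gene (−1.50 ± 0.29), and Gm11213, an uncharacterised gene (−1.80 ± 0.28), with limma adjusted p of 0.00239, 0.0215, 0.0378 and 0.0133. These 4 were named after their values were seen. The 2177 genes had a median log2 difference of 0.07.

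With 1 of the 8 arrays left out, a difference cannot shift by more than the SD between replicates. The log2 difference of Nog ran from −2.93 to −2.73, that of Hap1 from −1.96 to −1.75, and that of Enho, the adropin gene, from −1.69 to −1.36. The limma calls rest on the values that chose the genes, so they are listed only to show where 1 array decided them, beside 0.231% to 0.743% of all genes called lower in these fits. Nog, Gml2 and Hap1 were called in 8 of 8 fits and Enho in none. Saraf was not called without NaPB replicate 1 or without control replicate 3 or 4. Adprhl1 and Lrrc2 were called only without NaPB replicate 4, and Pvalb only without NaPB replicate 2, NaPB replicate 4 or control replicate 2. With all arrays, calls also turned on the processing. The same median called 5 (not Enho, Adprhl1 and Lrrc2). The mean of all features called 4 (not Enho, Hap1, Lrrc2 and Pvalb). The replicate block called 4 (not Enho, Adprhl1, Lrrc2 and Pvalb). Of all genes these settings called 0.42%, 0.477% and 0.371% lower.

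Genes whose values over the 8 arrays followed those of each member most closely were taken as the 3 with the highest Pearson r of log2 intensity. All r lay between 0.990 and 0.999, and since the diet difference dominates them, they describe genes that also fell. Nog and Hap1 were nearest to each other (r = 0.996), followed for Nog by Mdh1b, a malate dehydrogenase relative (log2 difference −2.57 ± 0.27), and Olfr248, and for Hap1 by Ago2, the core protein of RNA silencing (−2.11 ± 0.29), and Resf1. Nearest to Enho were Tcf19, Chka, the choline kinase gene (−1.45 ± 0.29), and Adam26b. Nearest to Saraf were Mapk11, a p38 kinase gene (−1.68 ± 0.29), Trav7n-5 and Olfr324. Nearest to Gml2 were Dph7, of diphthamide synthesis (−2.76 ± 0.30), Dph3b-ps and Gpha2. The list for Adprhl1 held Olfr103, Pacs2 and Abhd12b, that for Lrrc2 held Ubtd1, Ctrl and Olfr1280, and that for Pvalb held Esco1, Scgb2b20 and Gnal. All of these 22 genes outside the 8 had a log2 difference below 0, which follows from how they were taken. Limma called 15 of the 22 lower, where 0.617% of all genes were, and this count follows from the same choice. Not called were Tcf19, Adam26b, Trav7n-5, Ubtd1, Ctrl, Esco1 (−0.85 ± 0.26, limma adjusted p = 0.212) and Abhd12b (−0.47 ± 0.23, limma adjusted p = 0.57). Among the 22 were 4 olfactory receptor genes: Olfr103 (−1.76 ± 0.30), Olfr248 (−2.37 ± 0.25), Olfr324 (−2.62 ± 0.35) and Olfr1280 (−2.43 ± 0.30, at the floor on 4 arrays). Whether the features of these genes read the named transcripts was not tested.

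The BMP pathway, which noggin restrains, was examined through 46 measured genes. None was called by limma over all genes, where 1.01% of all genes were; 9 had an unadjusted p below 0.05, and 23 lay above 0 and 23 below. Over all genes on these arrays 10.1% had an unadjusted p below 0.05, the share against which each such count here is to be read. Among 11 ligand genes the median log2 difference was 0.09, with 6 above 0 and 5 below, and 3 had an unadjusted p below 0.05. Those 3 were Bmp4, Bmp2 (−0.82 ± 0.28, limma adjusted p = 0.302) and Gdf2 (−0.67 ± 0.27, limma adjusted p = 0.408). All 3 were lower on NaPB, without overlap of the diets. Bmp4 had 0.33, 0.43, 0.42 and 0.36 on NaPB replicates 1 to 4, against 0.67, 0.73, 1.00 and 0.93 on control replicates 1 to 4 (log2 difference −1.11 ± 0.26, limma adjusted p = 0.0866). Its diets did not overlap, but its second feature, at the floor on 1 array, gave −0.01 ± 0.35. Bmp6, the main ligand of hepcidin control, was at the floor on 6 of 8 arrays. Without control replicate 1 and NaPB replicate 4 Bmp4 was called (−1.18 ± 0.24, limma adjusted p = 0.0464). It was also called with quantile normalization (limma adjusted p = 0.0266), array weights (0.0132) and a pseudocount of 0.1 (0.0475). With 1 array left out Bmp4 was called in 0 of 8 fits (limma adjusted p from 0.0712 to 0.267).

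Among 12 receptor and SMAD genes, which carry the BMP signal to the nucleus, the median was −0.17 and Smad9 had the smallest p (−1.09 ± 0.45, limma adjusted p = 0.434). Among 13 other antagonist genes the median was 0.33. Fst, which encodes follistatin, a secreted antagonist of activins and BMPs, had 8.19, 6.33, 6.4 and 1.82 on NaPB replicates 1 to 4, against 1.18, 1.72, 1.27 and 2.23 on control replicates 1 to 4. NaPB replicate 4 lay within the control range, and with all arrays Fst was not called (log2 difference 1.68 ± 0.46, limma adjusted p = 0.155). It was called without NaPB replicate 4 (limma adjusted p = 0.0102), and without that array and control replicate 1 (2.03 ± 0.28, limma adjusted p = 0.015). Of the 13, 9 lay above 0 and 4 below. Sostdc1, of a secreted BMP and Wnt antagonist, had 0.0744, 0.0459, 0.44 and 0.0565 on NaPB replicates 1 to 4, against 0.487, 0.293, 0.83 and 0.383 on control replicates 1 to 4. NaPB replicate 3 lay within the control range, and the log2 difference was −2.26 ± 0.65 (limma adjusted p = 0.18), with 1 array at the floor. A second feature of Sostdc1, also at the floor on 1 array, gave 0.23 ± 0.42. It was called without NaPB replicate 3 (limma adjusted p = 0.0149) and not in the other fits with 1 array left out. Grem1, which encodes the antagonist gremlin, had −0.95 ± 0.31 (limma adjusted p = 0.27) and was at the floor on 6 of 8 arrays. Among 10 target genes the median was −0.06 and none had an unadjusted p below 0.05. Hamp, the hepcidin gene, had a log2 difference of −0.37 ± 0.48, and Id1, a common reporter of BMP signalling, of −0.09 ± 0.29 with 1 array at the floor.

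Genes tied to adropin through energy handling gave none called of 14, with a median log2 difference of 0.02 and 2 at an unadjusted p below 0.05. The smallest p was that of Ppara, the receptor that switches on fatty acid oxidation (−0.94 ± 0.30, limma adjusted p = 0.249), whose 5 features ran from −1.19 to −0.94. Rora, which encodes a nuclear receptor of the ROR family, had −0.57 ± 0.25 (limma adjusted p = 0.482). The 17 genes of store-operated calcium entry, in which Saraf acts, gave none called, a median of 0.13 and 1 at an unadjusted p below 0.05. That gene was Orai2, of a calcium channel subunit, with −1.02 ± 0.28 (limma adjusted p = 0.159). A second, dimmer feature of Orai2, at the floor on 1 array, gave −2.67 ± 0.42. Stim1, the calcium sensor to which the Saraf protein binds, had 0.24 ± 0.29, and Orai1, the channel that Stim1 opens, 0.30 ± 0.32.

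Among 12 other calcium buffers and sensors, the class of Pvalb, none was called by limma, the median was −0.02 and 2 had an unadjusted p below 0.05; Calm3, a calmodulin gene, had 0.83 ± 0.31 (limma adjusted p = 0.365). Without control replicate 1 and NaPB replicate 4 Calm3 was called (1.17 ± 0.22, limma adjusted p = 0.0405). It was also called with quantile normalization (limma adjusted p = 0.0488) and array weights (0.0298), but in 0 of 8 fits with 1 array left out. Among 19 genes of the Ly6 and uPAR family, none was called, the median was −0.12 and 2 had an unadjusted p below 0.05, with Psca at −0.75 ± 0.25 (limma adjusted p = 0.269). The 15 genes of ADP-ribosylation enzymes had a median of 0.01 and none called, 1 at an unadjusted p below 0.05; Macrod1, an ADP-ribose hydrolase gene, had −0.76 ± 0.31 (limma adjusted p = 0.426). Of 12 regulators of mitochondrial biogenesis none was called and none had an unadjusted p below 0.05 (median 0.10); Ppargc1a, the master coactivator, had −0.37 ± 0.28.

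Of 16 partners of huntingtin and Hap1, 1 was called higher by limma, none lower, and 3 had an unadjusted p below 0.05 (median 0.06). The called gene was Sort1, which encodes sortilin, a sorting receptor for neurotrophins and, in liver, for lipoproteins. Sort1 had 2.18, 1.7, 2.1 and 1.63 on NaPB replicates 1 to 4, against 0.98, 0.49, 0.63 and 0.75 on control replicates 1 to 4, and the diets did not overlap. The log2 difference was 1.45 ± 0.29 (limma adjusted p = 0.0451), and a second feature, at the floor on 5 arrays, gave −0.68 ± 0.38. With 1 array left out Sort1 was called in 2 of 8 fits, those without control replicate 1 or NaPB replicate 4, and the adjusted p ran from 0.0355 to 0.152. Htt, the huntingtin gene, had 0.15 ± 0.36.

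The neighbours of the 8 genes on their chromosomes, taken as the nearest 2 measured genes on each side, numbered 32. None was called by limma, 5 had an unadjusted p below 0.05, 16 lay above 0 and 16 below, and the median was 0.00. Beside Nog lay Gm525 (−0.14 ± 0.35, at the floor on 6 arrays) and Ankfn1 (−0.37 ± 0.45), and beside Enho lay Dnaic1 (−0.35 ± 0.34) and Cntfr (0.18 ± 0.58). Saraf had Leprotl1 (0.17 ± 0.43) and Gm4889 (0.50 ± 0.33) at its sides. Gml, the family member next to Gml2, had 1.02 ± 0.40, opposite in sign to Gml2, at the floor on 2 arrays and not called (limma adjusted p = 0.4), and Cyp11b1 on the other side was at the floor on 5 arrays (−1.42 ± 1.17). Hap1 lay between Gast (−1.14 ± 0.48) and Jup (−0.45 ± 0.31), Adprhl1 between 2810030D12Rik (0.00 ± 0.55) and Dcun1d2 (−0.17 ± 0.29), Lrrc2 between Tdgf1 (0.58 ± 0.25) and Rtp3 (−0.58 ± 0.52), and Pvalb between Ift27 (−0.04 ± 0.27) and Ncf4 (−0.07 ± 0.38).

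**Figure D4:**
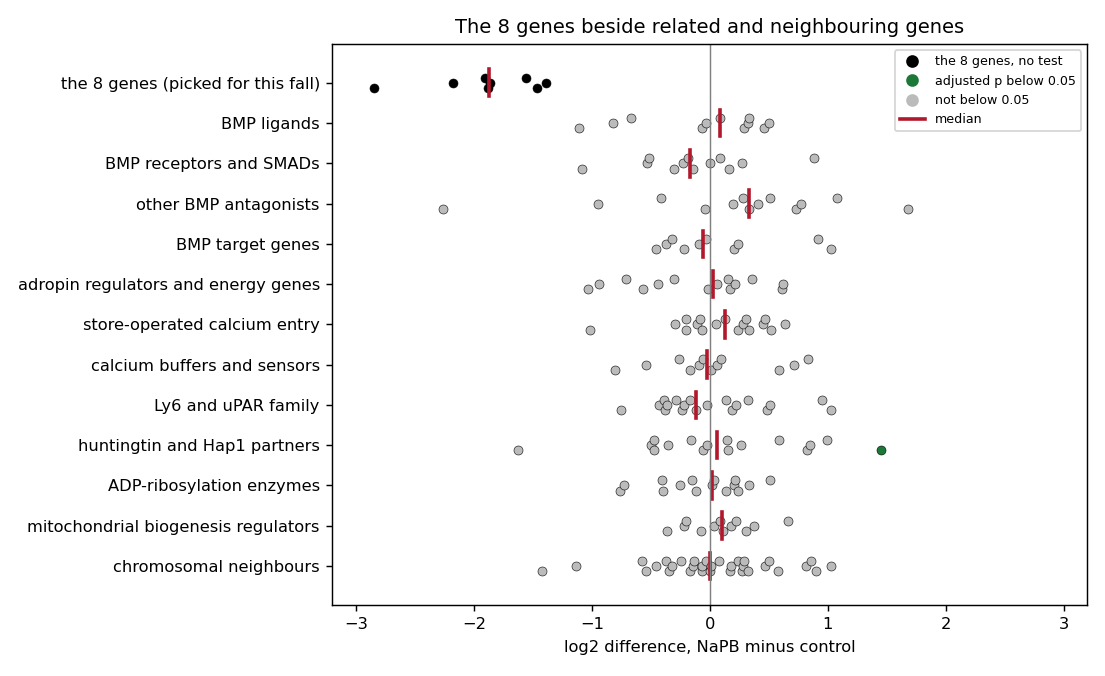
Log2 difference (NaPB minus control, x axis) of the 8 genes, of the genes in each related list and of the chromosomal neighbours, 1 point per gene, with red bars for the medians; black points carry no test and the green point is Sort1, the 1 gene called at an adjusted p below 0.05. The 8 genes lie between −2.85 and −1.39, and the median of every other list lies between −0.17 and 0.33.

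Since several of the 8 genes are known from muscle or nerve, markers of other cell types were read on the same arrays. Of 20 markers of skeletal and cardiac muscle, 9 lay above 0 and 11 below, 3 had an unadjusted limma p below 0.05, the median log2 difference was −0.25, and their summed intensity ran from 17.1 to 20.3 on NaPB and from 14.8 to 17.6 on control. Mb (myoglobin) and Mylpf were at the floor on all 8 arrays. Limma called 1 muscle marker lower, Myh2, a myosin gene, with 0.15, 0.23, 0.19 and 0.29 on NaPB replicates 1 to 4, against 0.97, 0.49, 0.67 and 0.52 on control replicates 1 to 4 (−1.61 ± 0.32, adjusted p = 0.0449), and it was called in 1 of 8 fits with 1 array left out, that without NaPB replicate 4 (adjusted p from 0.0288 to 0.15). Myh2 also lost its call with the same median on all arrays (limma adjusted p = 0.074), with a pseudocount of 1 (0.0989) and with the replicate block (0.114). None of 10 neuron markers was called, none had an unadjusted limma p below 0.05, and 5 lay above 0; their sum ran from 111 to 248 on NaPB and from 168 to 349 on control, most of it Snap25, and Stmn2 was at the floor on all arrays. Without Pygm, the brightest muscle marker, the muscle sum ran from 10.1 to 12.7 on NaPB and from 11.5 to 13.8 on control, so the order of the diets in that sum turned on Pygm. Pygm was higher on NaPB (1.12 ± 0.31, limma adjusted p = 0.164), and the muscle marker Tnni2 was lower (−1.10 ± 0.27, limma adjusted p = 0.109). Neither was called, and neither had overlapping diets.

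Of 12 hepatocyte markers, present at high signal on all arrays, 8 lay below 0, the median was −0.40 and none was called; 2 had an unadjusted limma p below 0.05, and the sum ran from 6537 to 10076 on NaPB and from 8893 to 15550 on control. Apoa1, of the main HDL protein, had the smallest p (limma adjusted p = 0.167), and its 10 features ran from −1.09 to −0.65. Alb, the albumin gene, had −1.24 ± 0.36 (limma adjusted p = 0.19). Among 10 macrophage and leukocyte markers the median was −0.34 and 1 was called, S100a8, a neutrophil gene with 46.3, 126, 71.0 and 2.02 on NaPB replicates 1 to 4, against 0.42, 0.31, 0.25 and 0.46 on control replicates 1 to 4. Its log2 difference was 6.43 ± 1.04 (limma adjusted p = 0.0176), and with 1 array left out it was called in 3 of 8 fits, those without NaPB replicate 2, NaPB replicate 4 or control replicate 4. It lost its call with a pseudocount of 1 (limma adjusted p = 0.121) and with a robust variance trend (0.051). Without S100a8 the leukocyte sum ran from 30.8 to 37.5 on NaPB and from 32.7 to 45.7 on control. None was called among 10 markers of stellate cells and fibroblasts (median −0.32, 3 at an unadjusted limma p below 0.05), 9 of endothelium (−0.01, 1), 7 of bile duct (0.08, 0), 6 of fat (−0.11, 0) and 6 of pancreas (−0.29, 2). The part of any of these cell types in the falls of the 8 genes was not tested.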

How the data were processed

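Total liver RNA was labelled with Cy3 and hybridised to one-colour Agilent arrays, which the authors quantified with Agilent Feature Extraction 10.7, per the submitters' processing notes. The authors deposited linear intensities, scaled so that each 75th percentile is near 1, as the values show. Background correction, spot flags and the scaling rule: not given in the sources used here. Of 62976 features 31465 carried 1 gene symbol and 31511 none; symbols were updated through RefSeq tables of GRCm38.p6 (3282 changed), which served for names and neighbours. The analysis took log2 of the deposited intensity, with the brightest feature for each gene, and fitted diet by limma 3.58.1 under R 4.3.3 (lmFit and eBayes, two-sided, Benjamini-Hochberg over 20738 genes, threshold 0.05). Standard errors of second features come from the same model over all named features. The fit was tested on simulated data, in which genes varied independently of each other. Genes on these arrays shared their deviations, so that test does not show whether the adjusted p-values hold here. The 8 genes, the lists and the alternatives were chosen with earlier results of these data known. Named are the 8 genes, the called or else smallest-p gene of each pathway list, called markers, the 3 genes most like each of the 8 and the nearest neighbours. Other genes, among them Sostdc1, Grem1, Chrdl2, Cer1, Bmp2, Gdf2, Bmp6, Hamp, Id1, Rora, Stim1, Orai1, Htt, Pygm, Tnni2, Apoa1 and Alb, were named after their values were seen. Tables were made with pandas 2.3.3 and figures with matplotlib 3.10.9, in Python 3.11.15.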

Additional observations from a re-analysis of the deposited data

Results flagged for a closer look

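Within the 4 arrays of a diet, 3 of 24 sets of values had 1 array far from the other 3. This was judged by Dixon's ratio of its gap to the whole range on the log2 scale. Chance does this in about 1 of 20 independent sets. The 24 sets share the same 8 arrays and are not independent, so that share is no yardstick for them. For the brightest feature of Hap1 on NaPB the low array was replicate 4, with a ratio of 0.943 (24.2 against 35.1, 35.1 and 35.9). For the brightest feature of Lrrc2 on NaPB it was again replicate 4, with a ratio of 0.849 (3.14 against 4.13, 4.18 and 4.34). For the other feature of Lrrc2 on the control diet it was replicate 1, with a ratio of 0.86 (0.0887 against 0.257 and above). Other genes of this signal were also low on NaPB replicate 4, by a median of −0.63 log2 units.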

How the results depend on the processing

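Over 19 alternatives, 147 of 152 log2 differences of the 8 genes moved by less than the SD between replicates, 5 moved further and none changed sign. Most could not move further, so this tally is no measure of robustness. Leaving out 1 array, or 1 array of each diet, cannot shift a difference beyond that SD. The robust variance trend, the replicate block and leaving out dim genes returned the main differences (Nog −2.85). The same median and same 75th percentile shifted all genes alike (Nog −2.86 in both). The 5 came from the mean of all features (Hap1, Lrrc2 and Pvalb) and a pseudocount of 1 (Nog and Gml2). The second features of Lrrc2 (0.062) and Pvalb (0.11), read in place of the brightest after the data were seen, had the opposite sign. The median difference of the 8 genes, −1.88, was −1.44 with the mean of all features, −1.57 with a pseudocount of 1, −1.55 without control replicate 1 and NaPB replicate 4, and −1.98 to −1.68 with 1 array left out. The 209 genes called over the whole table became 398 under quantile normalization, 812 with array weights, 135 with the replicate block, 570 without those 2 arrays, and 88 to 365 with 1 array left out. The 1 related or neighbouring gene called, Sort1, became 5 under quantile normalization, 5 with array weights, 2 with a pseudocount of 0.1, 0 with arrays shifted to the same median, 4 without the 2 arrays, and 0 to 2 with 1 array left out; the mean of all features called Orai2 and the replicate block called Sostdc1 (limma adjusted p = 0.0409) in its place. The replicate numbers only share a number: same-numbered arrays correlated at 0.23, −0.29, 0.04 and 0.23 in their deviations from the diet means, and 1 of the 4 NaPB arrays correlated best with its own number. The causes were not tested. Signal near the floor limits what the dim second features can show.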
